A study of Mus musculus with 20 samples.

Results

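Subcutaneous adipose tissue of mice exposed to intermittent hypoxia was compared with the same tissue of mice in room air, on the 4 arrays whose titles carry the word Con. They were chosen by title: 2 arrays are titled ConHyp and 2 ConNonHyp, out of 20 arrays in the series. The mice were 12 weeks old. For hypoxia, oxygen was lowered from 20.9% to 5% over 30 seconds and brought back to 20% over 30 seconds, for 16 hours a day on 5 days, and the comparison mice had intermittent room air on the same schedule. The strains named by the labels are C57BL-6J and C57BL-6J-Lep (the latter marked there as the obesity gene, leptin), and which of them gave an array is not stated. What Con stands for, and what the word Glucose means on the 4 other adipose arrays, is likewise not stated in the labels. Whether the 2 arrays of a side came from separate animals or from pooled tissue is also not given, so that p-values here measure only the spread between arrays. The arrays of a side bear the letters a and b and are called hypoxia a, hypoxia b, non-hypoxia a and non-hypoxia b. The titles also carry a code, s4 on hypoxia a and non-hypoxia b and s2 on the other two.

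Low oxygen stabilises the hypoxia-inducible factors, pairs of an oxygen-labile alpha subunit (encoded by Hif1a or Epas1) and the constant subunit Arnt. In normal oxygen, prolyl hydroxylases such as Egln1 mark the alpha subunit for destruction by the Vhl complex. The stabilised factor binds DNA elements with the core ACGTG and raises genes of glucose uptake, glycolysis, vessel growth and mitophagy. In white fat, hypoxia is also known to act on the hormones leptin and adiponectin and on lipid storage and release. Subcutaneous fat lies against skin and skeletal muscle, and some depots hold brown adipocytes, which burn fatty acids for heat through Ucp1.

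Under hypoxia, most skeletal muscle genes other than those of slow fibres were lower on both arrays, among them Pgam2 at 8.02-fold and Casq1 at 6.07-fold. A mixed group of genes was higher on both, among them the imprinted genes Nnat, at 3.61-fold, and Mest, at 3.08-fold, and the hormone gene Lep, at 2.15-fold. The known targets of the hypoxia-inducible factors had no common direction: Adm was at least 2.61-fold higher, Bhlhe40 was 2.78-fold lower, and Vegfa, Bnip3 and Ldha overlapped between the treatments. Genes of brown fat, of slow muscle fibres and of mitochondria differed between the replicate arrays far more than between the treatments. No difference passed the test across all probe sets.

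Each array held 12488 values of linear intensity, 1 per probe set. The values had been scaled so that the mean without the extremes was 800 on every one of these arrays, and 17.5% to 21.2% of them were at or below 0. Values under 97.7 were set to 97.7 before log2, and this lowest level, 6.61 on the log2 scale, is called the floor. Probe sets with a mean over the 8 adipose arrays above the 40th percentile were tested, 7453 in number, which represent 5659 named genes. The tissue label was borne out by Adipoq, the adipocyte hormone adiponectin, with intensities from 22844 to 47113, and by the fatty acid carrier Fabp4, from 9151 to 22771. On the platform's control probe sets for Actb, the intensity at the 3' end over that at the 5' end, a measure of RNA integrity, was 1.70 and 1.37 on the hypoxia arrays and 0.788 and 0.942 on the non-hypoxia arrays. The Gapdh ratio lay between 0.865 and 1.02 on all 4. The part of the Actb ratio in any result below was not tested.

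The arrays did not group by treatment. Pearson's r over the 7453 probe sets was 0.870 between the hypoxia arrays and 0.869 between the non-hypoxia arrays. Across treatments it was 0.921 between the arrays lettered a, 0.877 between those lettered b, 0.899 between hypoxia b and non-hypoxia a, and 0.852 between hypoxia a and non-hypoxia b. The replicate pairs were thus less alike than 3 of the 4 pairs of opposite treatment and more alike than the fourth. Hypoxia a and hypoxia b differed 2-fold or more at 1465 probe sets, or 19.7%, whereas hypoxia a and non-hypoxia a did so at 918, or 12.3%, and hypoxia a and non-hypoxia b at 1711, or 23.0%. When the hypoxia difference was taken separately within each letter, the 2 differences had an r of -0.06 across probe sets and the same sign at 45.6% of them. Of the 303 probe sets that were 2-fold or more apart within both letters, 131 moved in the same direction and 172 in opposite directions. Pairing the arrays by title code gave an r of -0.24, and 119 of 449 such probe sets had the same direction.

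**Figure D1:**
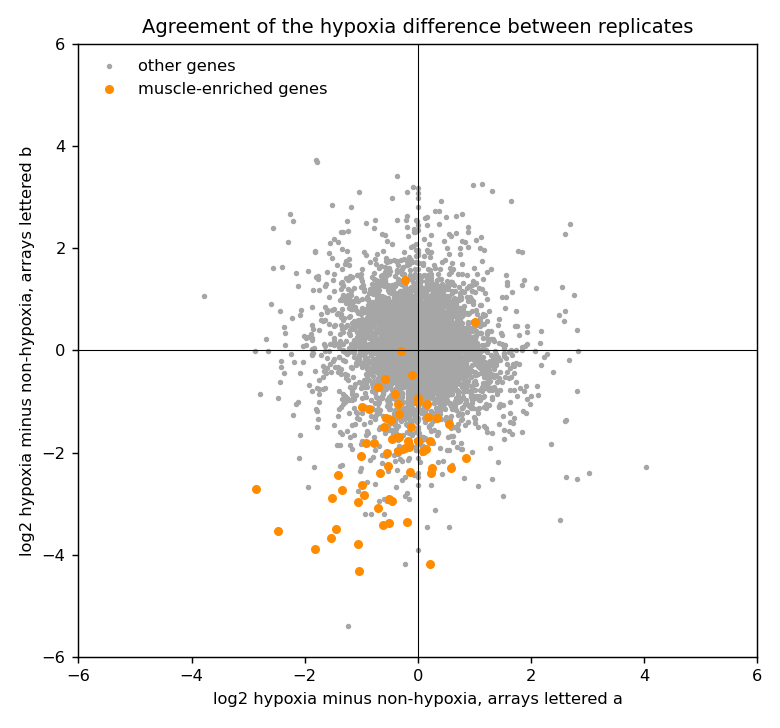
The log2 difference between hypoxia and non-hypoxia for each of 5659 genes, taken between the arrays lettered a (horizontal axis) and between the arrays lettered b (vertical axis). The cloud has no slope, and the 64 muscle-enriched genes (orange) lie mostly below 0 on both axes, farther on the vertical one.

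With limma's moderated test on the 8 adipose arrays in 4 groups, 0 of 7453 probe sets passed a Benjamini-Hochberg adjusted p of 0.05 for hypoxia against non-hypoxia in Con (0%), and the smallest adjusted p was 1. An unadjusted p under 0.05 was reached by 218 probe sets (2.92%), where 372.7 would be expected by chance. The fit restricted to the 4 Con arrays also gave 0, with 202 at an unadjusted p under 0.05. The median standard error of a log2 difference was 0.44. An exact permutation test of 2 arrays against 2 cannot go below a two-sided p of 0.33. Sizes and the agreement of the arrays are therefore what is given below, and no gene is called changed. A gene is said to lie above or below when both hypoxia arrays were beyond both non-hypoxia arrays. This held for 845 genes above (14.9%) and 596 below (10.5%). With a difference of 2-fold or more in addition, 100 genes were higher (1.77%) and 146 lower (2.58%). By the mean alone, 55.1% of genes were higher and 44.6% lower, and the median difference over all genes was 0.05 on the log2 scale. Where an array of the lower side is at the floor and none of the higher side is, a difference is set in part by the floor and is a lower bound in size, with or without an error beside it. Errors given with a log2 difference are standard errors of the fit, with 2 arrays a side.

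Among genes that were higher under hypoxia, those farthest from overlap encode a mixed set of proteins. Nnat, an imprinted gene for the membrane proteolipid neuronatin, had intensities of 18629 and 14597 on hypoxia a and b against 5490 and 3806 on non-hypoxia a and b, a log2 difference of 1.85 ± 0.36, or 3.61-fold. Mest, another imprinted gene and a marker of adipocyte enlargement in mice, measured 782 and 726 against 213 and 281, or 3.08-fold higher (1.62 ± 0.41). In both genes the hypoxia arrays lay close together and well clear of the others.

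Nnmt, nicotinamide N-methyltransferase, an enzyme abundant in adipose tissue, measured 1243 and 1606 against 565 and 480, or 2.71-fold higher. Tuft1 measured 638 and 540 against 150 and 232, a difference of 1.66 ± 0.41. Cpne6, a calcium-dependent membrane-binding copine, was at 673 and 746 against 216 and the floor, a log2 difference of at least 2.29. These 3 genes, with Nnat and Olfm1, were the 5 with the smallest unadjusted p among genes higher under hypoxia.

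Several of the best separated genes were at the floor without hypoxia, so that their fold is a lower bound. Dnajc17, a DnaJ-family co-chaperone, measured 631 and 546 under hypoxia and was at least 6.01-fold higher. Sprr2i, a small proline-rich protein of the keratinocyte envelope, measured 597 and 477 and was at least 5.46-fold higher. Adm, which encodes the vasodilator adrenomedullin and is a textbook target of the hypoxia-inducible factors, measured 228 and 285 and was at least 2.61-fold higher. Pygo2, Hoxd10 and Olfm1 were likewise at the floor on both non-hypoxia arrays, and their folds were at least 3.73, 2.86 and 2.94. In all, 9 of the 100 genes had both non-hypoxia arrays at the floor, and 43 had at least 1 there.

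Single genes of this group were contradicted by a second probe set. Prkar1b, a regulatory subunit of protein kinase A, measured 1399 and 1531 against 392 and 403 on its brighter probe set, a difference of 1.88 ± 0.49, while its other probe set differed by -1.58. Plk1, a mitotic kinase, differed by at least 2.21 on the brighter probe set and by -1.47 on another.

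**Figure D2:**
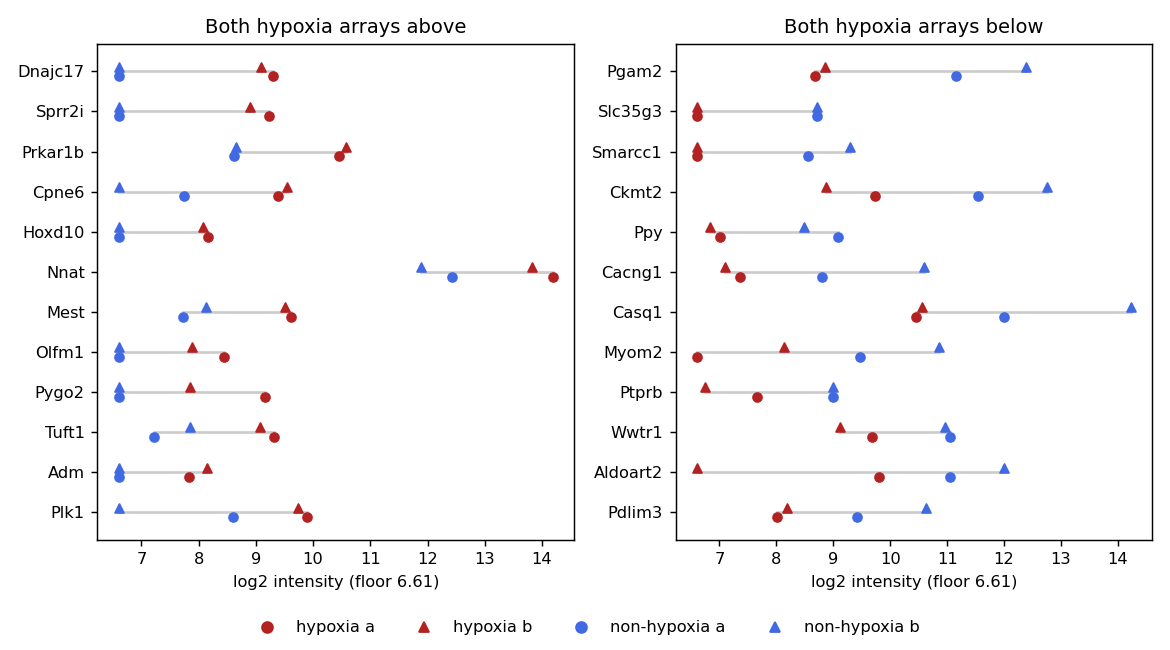
Log2 intensity of the 12 genes with the widest gap between hypoxia (red) and non-hypoxia (blue) arrays in each direction, circles for arrays lettered a and triangles for b. Values at the left edge, 6.61, are at the floor, as for Dnajc17 on both non-hypoxia arrays.

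The genes that were lower under hypoxia were led by genes of skeletal muscle. Pgam2, the muscle form of the glycolytic enzyme phosphoglycerate mutase, measured 411 and 461 on hypoxia a and b against 2275 and 5358 on non-hypoxia a and b, or 8.02-fold lower (-3.00 ± 1.36). Ckmt2, the mitochondrial creatine kinase of striated muscle, measured 847 and 466 against 2984 and 6870, or 7.20-fold lower. Casq1, the calcium store protein of fast fibres, measured 1404 and 1506 against 4074 and 19144, or 6.07-fold lower (-2.60 ± 0.90). In each of these genes non-hypoxia b was the highest array, and without it the difference for Casq1 was -1.49.

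The list of skeletal muscle fibre genes had 30 members, of which 27 passed the filter. Of these 24 were lower on average under hypoxia, against 44.6% of all genes, and 19 lay below with no overlap, against 10.5% of all genes, and 17 were 2-fold or more lower, against 2.58%. The list's median difference was -1.28, against 0.05 over all genes. The members' summed intensity was 182800 and 127500 on the hypoxia arrays and 202300 and 393100 on the non-hypoxia arrays, so that none of the arrays was free of muscle transcripts. Mylpf, the fast myosin regulatory light chain, measured 1833 and 1287 against 3504 and 11901 (-2.07 ± 1.15). Tcap, a titin-binding protein of the Z-disc, measured 671 and 664 against 1186 and 6158. Ckm, the cytosolic muscle creatine kinase, measured 3026 and 3218 against 6084 and 13485, and a second Ckm probe set differed by 0.23.

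The size of the muscle difference depended on which array was set against which. The median of the list was -0.54 between the arrays lettered a and -1.80 between those lettered b. The standard errors of its genes were large, 1.36 for Pgam2 and 1.86 for Ckm. In the 4 Glucose arrays the median of the same genes was 0.64, in the other direction. There the replicates were far apart and the treatments overlapped for Pgam2 and Casq1. Pgam2 measured 238 and 1371 under hypoxia against the floor and 1912, and Casq1 measured 2199 and 3174 against 960 and 4873. The Glucose non-hypoxia array lettered a was the lowest for both genes. In bulk tissue, fewer muscle cells and less RNA per muscle cell cannot be told apart, and how much muscle each sample held was not measured.

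A wider set was read from the skeletal muscle arrays of the same series, which come from other mice, 20 weeks old. Muscle, brain and lung each had 1 control array, 1 sleep fragmentation array and 1 hypoxia array, all from mice of that age. Muscle-enriched genes were those with a level at least 4-fold higher on the 3 muscle arrays than on the 6 arrays of brain and lung, 64 genes or 1.13% of 5659. Of these, 62 were lower in the Con hypoxia arrays, 44 lay below and 34 were 2-fold or more lower (53.1%), and 0 were 2-fold higher. They made up 34 of the 146 genes that were 2-fold lower (23.3%). Without them, 112 of 5595 genes were 2-fold lower (2%) and 100 higher (1.79%). The set was defined after the muscle genes had been seen among the lower genes, and 10 of its members are also on the list above. The other 17 list genes that passed the filter are not in the set, and 8 of them are among the 112. The 112 are therefore not free of muscle genes.

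The muscle genes that did not lie below were mostly those of slow fibres. Of the 8 such members, 6 encode slow-fibre proteins, and the other two were Acta1, the actin of skeletal fibres, and Car3, a carbonic anhydrase that adipocytes also express. The 6 slow-fibre genes, singled out after the values were seen, had a median difference of -0.22. Myh7, the slow myosin heavy chain, measured 2197 and 419 against 4407 and 503. Tnni1, the slow troponin I, measured 2268 on hypoxia a and 2714 on non-hypoxia a, and was at the floor on both arrays lettered b. All 6 slow genes were higher on both arrays lettered a than on both lettered b, by a median of 3.42 on the log2 scale, an order that 19.5% of all genes had.

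Promoter sequence is shown for Pgam2, Casq1 and Ckmt2, the 3 muscle genes described first, because they were lower together, with the E-box CANNTG in capitals. Myogenic factors bind some E-boxes, and this motif is its own reverse complement. The stretches are the 250 bases before the RefSeq start in GRCm38.p6, on the gene's strand, 5′ to 3′: chr11:5803797-5804046 on the minus strand for Pgam2, chr1:172219896-172220145 on the minus strand for Casq1 and chr13:91876886-91877135 on the minus strand for Ckmt2.
Pgam2: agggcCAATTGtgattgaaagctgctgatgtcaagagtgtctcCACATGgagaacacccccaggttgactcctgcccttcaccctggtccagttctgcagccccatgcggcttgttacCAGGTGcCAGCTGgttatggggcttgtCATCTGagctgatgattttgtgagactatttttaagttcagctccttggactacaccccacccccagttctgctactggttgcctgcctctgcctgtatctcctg
Casq1: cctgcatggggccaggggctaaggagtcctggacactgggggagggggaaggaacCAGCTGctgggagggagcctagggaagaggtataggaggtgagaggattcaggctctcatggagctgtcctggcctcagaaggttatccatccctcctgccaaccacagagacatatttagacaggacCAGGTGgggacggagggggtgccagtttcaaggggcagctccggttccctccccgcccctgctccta
Ckmt2: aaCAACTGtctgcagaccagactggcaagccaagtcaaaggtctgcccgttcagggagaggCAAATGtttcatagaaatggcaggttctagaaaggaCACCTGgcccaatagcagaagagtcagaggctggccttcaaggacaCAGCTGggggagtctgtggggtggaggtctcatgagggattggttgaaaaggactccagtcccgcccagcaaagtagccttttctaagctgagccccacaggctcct
Of the 27 muscle genes that passed the filter, 22 matched the promoter table by symbol, with 28 windows, and 25 of these windows held CANNTG (89.3%). Of all 32851 promoter windows of this length, 66.2% held it. A match is a description of the letters and not a binding site.

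**Figure D3:**
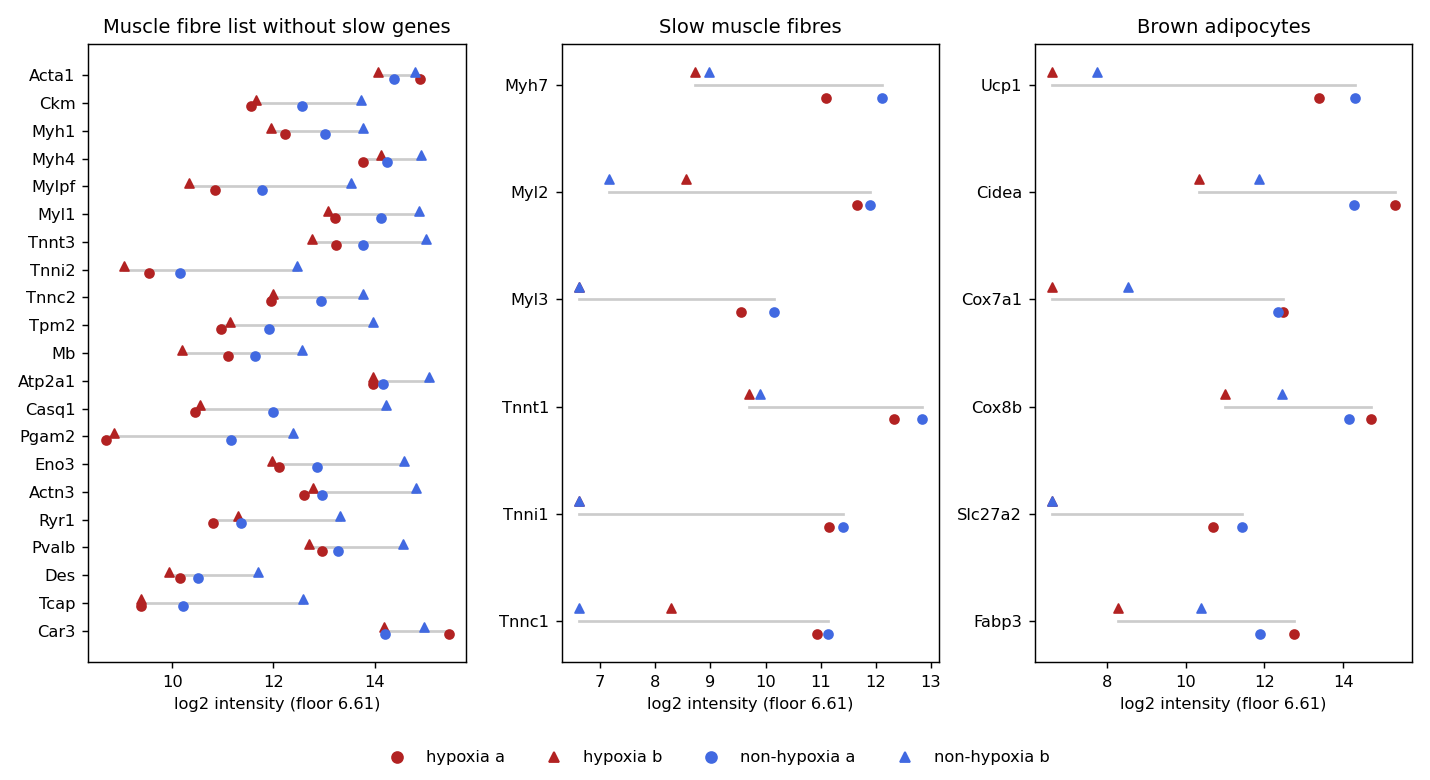
Log2 intensity of the muscle fibre list without its slow-fibre genes, of slow-fibre genes and of brown adipocyte genes on the 4 Con arrays, red for hypoxia, blue for non-hypoxia, circles for letter a and triangles for b. In the left panel red lies left of blue for every gene but Acta1 and Car3, and in the other panels circles lie right of triangles.

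Outside muscle, Wwtr1, a transcriptional coactivator of the Hippo pathway, measured 817 and 557 against 2123 and 1999, or 3.05-fold lower (-1.61 ± 0.72), although its second probe set differed by -0.10. Ptprb, a receptor phosphatase of endothelial cells, measured 201 and 107 against 508 and 512 (-1.79 ± 0.87). Smarcc1, a subunit of the SWI/SNF chromatin remodeller, was at the floor on both hypoxia arrays against 375 and 627, and was at least 4.96-fold lower. Sac3d1 measured 140 and 174 against 470 and 349, or 2.59-fold lower (-1.38 ± 0.36). Of the 146 genes that were 2-fold lower, 5 had both hypoxia arrays at the floor, and 37 had at least 1 there.

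Brown adipocyte genes differed more between the letters than between the treatments. All 6 that passed the filter, of 12 listed, were lower on average under hypoxia, with a median of -0.53, but 0 lay below. Of all genes, 44.6% were lower on average and 10.5% lay below. Ucp1, the uncoupling protein that defines brown fat, measured 10666 on hypoxia a and 20246 on non-hypoxia a, but was at the floor on hypoxia b and at 215 on non-hypoxia b. Cidea, a lipid droplet protein high in brown fat, measured 40893 and 19643 on the arrays lettered a, and 1301 and 3705 on those lettered b. Of the 6 genes, 3 are also in the muscle-enriched set above: Cox7a1, Cox8b and Fabp3. All 6 were higher on both arrays lettered a, against 19.5% of all genes, by a median of 4.07. Their summed intensity was 92490 and 69750 on the arrays lettered a and 3946 and 11280 on those lettered b.

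Mitochondrial genes followed the same split. Of 53 respiratory chain genes, 46 were higher on both arrays lettered a, against 19.5% of all genes, by a median of 1.21 over the list. For the citrate cycle this was 21 of 21, with a median of 1.20, and for fatty acid oxidation 18 of 20, with a median of 1.47. Their median hypoxia differences were 0.02, -0.03 and 0.03. In the 3 lists, the genes that lay above were Ndufa1 and Atp5g1, and the one that lay below was Cox6a2, the heart and muscle isoform of a cytochrome oxidase subunit. The part of brown fat and of slow muscle in the mitochondrial split was not tested. Over all probe sets, 384 were 2-fold higher with no overlap on the arrays lettered a (5.15%) and 306 on those lettered b (4.11%), against 161 (2.16%) and 206 (2.76%) by treatment and 193 (2.59%) and 228 (3.06%) by title code.

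Genes of the hypoxia response, glycolysis aside, did not separate from the rest of the array. Of 41 listed genes, 28 passed the filter: 11 were higher and 16 lower on average, 4 lay above (14.9% of all genes did) and 3 below (10.5%). One of them was 2-fold higher, Adm, and one 2-fold lower, Bhlhe40. The median difference was -0.08, against 0.05 over all genes. The list had no common direction.

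Among the sensors and regulators, Hif1a measured 3336 and 4079 on the hypoxia arrays against 3125 and 4575, a difference of -0.04 ± 0.35. Epas1 measured 864 and 877 against 790 and 559, a difference of 0.39 ± 0.35. Egln1, the main oxygen-sensing hydroxylase, measured 1605 and 1883 against 2954 and 2346, a difference of -0.60 ± 0.34. The hypoxia arrays lay above for Epas1 and below for Egln1, and each difference was under 2 standard errors.

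Among the targets, Vegfa, the main vessel growth factor, measured 1387 and 1938 against 2219 and 812, and the treatments overlapped (0.29 ± 0.56). Bnip3, a mitophagy receptor, measured 4468 and 3362 against 4288 and 3351, a difference of 0.03 ± 0.33. Slc2a1, the basal glucose transporter, measured 682 on hypoxia a and was at the floor on hypoxia b, against 344 and 240, so that its replicates were farther apart than the treatments. Angptl4, a secreted inhibitor of lipoprotein lipase, measured 8516 and 8028 against 7258 and 4742, and its 3 other probe sets differed by 0.62, 0.15 and 0.29. Bhlhe40, a transcriptional repressor of the clock that hypoxia is known to induce, measured 512 and 709 against 1439 and 1951, or 2.78-fold lower (-1.47 ± 0.43).

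The core ACGTG was searched on both strands in the same 250-base windows. It was found in 13 of the 24 windows of the 19 list genes with a promoter entry (54.2%), and in 16.6% of all windows. Bnip3 and the lactate dehydrogenase gene Ldha are shown because their windows hold the core and their intensities overlapped between the treatments. Capitals mark the core on either strand, which together read as CACGTG where the strands overlap. The windows are chr7:138909507-138909756 on the minus strand for Bnip3 and chr7:46845554-46845803 on the plus strand for Ldha, both in GRCm38.p6.
Bnip3: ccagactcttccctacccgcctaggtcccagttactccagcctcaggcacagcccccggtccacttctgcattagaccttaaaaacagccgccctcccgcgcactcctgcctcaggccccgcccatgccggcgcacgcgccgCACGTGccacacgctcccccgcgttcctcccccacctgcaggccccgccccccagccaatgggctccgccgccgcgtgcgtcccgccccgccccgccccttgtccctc
Ldha: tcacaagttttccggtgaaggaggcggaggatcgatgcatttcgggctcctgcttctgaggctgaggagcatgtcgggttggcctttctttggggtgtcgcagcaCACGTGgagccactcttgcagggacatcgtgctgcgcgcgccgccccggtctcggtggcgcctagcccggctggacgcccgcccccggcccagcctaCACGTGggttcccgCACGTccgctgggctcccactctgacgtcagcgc
Ldha measured 24691 and 16489 against 22579 and 28339, a difference of -0.33 ± 0.51.

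Glycolytic genes were lower more often than higher. Of 17 genes that passed the filter, 12 were lower on average, against 44.6% of all genes. Of these 17, 8 lay below (47.1%, against 10.5% of all genes) and 1, Hk1, lay above (5.88%, against 14.9%). The list's median was -0.55, which was -0.11 without hypoxia b. The 4 that were 2-fold lower (23.5%, against 2.58% of all genes) were Pgam2, Eno3, Pfkm and Hk2, the forms prominent in muscle. Pfkm, muscle phosphofructokinase, measured 3170 and 2671 against 5128 and 20609, and Eno3, the muscle enolase, measured 4425 and 4005 against 7461 and 24553. Without the 2 muscle-enriched genes, Pgam2 and Hk2, the median of the remaining 15 was -0.33, and these 15 still held Eno3 and Pfkm. Among forms expressed widely, Pkm measured 13133 and 8986 against 15468 and 22141 (-0.77 ± 0.45), and Pgk1 measured 6882 and 2778 against 7829 and 7692 (-0.83 ± 0.50). Pfkfb3, which makes the activator of phosphofructokinase, measured 996 and 1318 against 1734 and 2172 (-0.76 ± 0.34). The part of muscle in the lower values of the widely expressed forms was not tested.

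Adipocyte hormones and markers went both ways. Of 18 genes, 12 were higher on average (66.7%, against 55.1% of all genes), 6 lay above (33.3%, against 14.9%) and 3 below (16.7%, against 10.5%), with a median of 0.25, which was 0.04 without hypoxia a. Lep, the satiety hormone leptin, measured 10128 and 10313 against 3069 and 7379, or 2.15-fold higher, with a standard error of 1.18 on a log2 difference of 1.10, and its second probe set differed by 1.24. Without non-hypoxia a, the array with the lowest Lep, the difference was 0.47. Retn, the hormone resistin, measured 19819 and 15504 against 10933 and 12112, a difference of 0.61 ± 0.50. Agt, angiotensinogen, measured 1346 and 3151 against 1094 and 1034 (0.95 ± 0.45). Adipoq measured 47113 and 22844 against 23358 and 30807 and overlapped between treatments, as did Pparg, the master regulator of adipocytes (-0.29 ± 0.45).

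In the other direction, Cebpb, an early transcription factor of adipogenesis, measured 2519 and 1898 against 5287 and 4463, or 2.22-fold lower (-1.15 ± 0.34). Slc2a4, the insulin-responsive glucose transporter, measured 2446 and 1924 against 3978 and 3174 (-0.71 ± 0.41). Vldlr, the very low density lipoprotein receptor, was at the floor and at 161 against 254 and 776 (-1.82 ± 0.58), while its second probe set differed by 0.33. Its list, lipolysis and fatty acid uptake, had 9 of 17 genes higher and 8 lower on average, with a median of 0.04. In that list 2 genes lay above (11.8%, against 14.9% of all genes) and only Vldlr lay below (5.88%, against 10.5%). Of 15 insulin signalling genes, 3 lay below (20.0%, against 10.5% of all genes) and 3 above (20.0%, against 14.9%), with a median of 0.02. Slc2a4 and Gys1, glycogen synthase, were among those below, and both are also strongly expressed in muscle.

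Genes of fatty acid and triglyceride synthesis had a median of -0.34, with array medians of -0.25 and -0.26 around the mean of the 4 arrays under hypoxia, and 0.17 and 0.05 without it. Of 16 genes, 11 were lower on average, against 44.6% of all genes. Of these 16, 5 lay below (31.2%, against 10.5% of all genes) and 0 above (14.9% of all genes did). Acly, which makes cytosolic acetyl-CoA, measured 3848 and 3344 against 7946 and 5133 (-0.83 ± 0.38). Me1, malic enzyme, measured 3499 and 3483 against 5867 and 5944 (-0.76 ± 0.32). Lpin1, Slc25a1 and Gpam also lay below, by 0.38 to 0.57. Fasn, the fatty acid synthase, measured 29167 and 15232 against 16484 and 20560, and Scd1, a desaturase, measured 46203 and 18178 against 18246 and 29792, and both overlapped. The summed intensity of the list, 168700 and 98920 against 125900 and 122900, overlapped as well.

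The brightest genes shared a pattern that followed the title code. Over the 74 probe sets with the highest means, the top 1%, the median deviation from the mean of the 4 arrays was 0.55 on hypoxia a, -0.32 on hypoxia b, -0.26 on non-hypoxia a and 0.16 on non-hypoxia b. Both arrays coded s4 were above both coded s2 at 57 of these 74, against 1166 of all 7453 probe sets. After quantile normalization 21 of the 74 had this order, against 1165 of the 7453, and the 4 medians lay between -0.02 and 0.05. The difference for Adipoq moved from 0.29 to 0.02 and that for Scd1 from 0.31 to 0.10 with it, while Lep kept 0.99 and Retn 0.56.

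Among immune genes, the interferon response list had 15 of 18 genes higher on average (83.3%, against 55.1% of all genes). Of these 18, 5 lay above (27.8%, against 14.9% of all genes) and 1 below (5.56%, against 10.5%). The list's median was 0.26, which ran from 0.14 without hypoxia b to 0.43 without hypoxia a. Psmb10 and Psmb9, subunits of the immunoproteasome, measured 2793 and 3361 against 1900 and 2140, and 1155 and 1375 against 715 and 1048. Tap1, the peptide transporter of antigen presentation, measured 1832 and 3354 against 1774 and 1670. Rsad2, an antiviral protein induced by interferon, lay below, by -1.22 ± 0.64. B cell genes were higher for 9 of 10 (90.0%, against 55.1%), with 3 above (30.0%, against 14.9%) and 0 below. Their median was 0.31, which was 0.09 without hypoxia b and 0.09 without non-hypoxia a. Cd79b, part of the B cell receptor, measured 2134 and 2713 against 1205 and 1479. Macrophage genes were lower for 10 of 13, against 44.6% of all genes, with a median of -0.12 that turned to 0.23 without hypoxia a. Only Itgax, the integrin CD11c, lay below (7.69%, against 10.5%), at 183 and 183 against 308 and 461, and 0 lay above. The array medians of all 3 lists were higher on hypoxia b than on hypoxia a, by more than the lists' own differences. Markers of lymph node stroma and vessels, which follow lymph node tissue in a fat sample, were higher on average for 5 of 6 genes (83.3%, against 55.1%). Of these 6, 0 lay above and 0 below, and their part in the B cell values was not tested.

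Matrix genes were lower for 24 of 35, against 44.6% of all genes, with a median of -0.18. Of the 35, 6 lay below (17.1%, against 10.5% of all genes) and 1 above (2.86%, against 14.9%). Col1a1, a chain of type I collagen, measured 3087 and 8697 against 11258 and 9292, and Col1a2 measured 4594 and 12110 against 13595 and 12223. Lum, the proteoglycan lumican, measured 1046 and 1618 against 2310 and 2312. For both collagens hypoxia a alone was far from the other 3 arrays, and the list's array median was -0.53 there and 0.36 on hypoxia b. Without hypoxia a the list's median was 0.25, in the other direction.

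Immediate early genes went both ways, with 6 of 24 above (25.0%, against 14.9% of all genes) and 5 below (20.8%, against 10.5%). Jun measured 402 and 394 against 282 and the floor, and Ccn1 measured 244 and 272 against 134 and the floor. Nr4a1, an orphan nuclear receptor, was at the floor and at 419 against 541 and 799. Of 20 heat shock chaperone genes, 7 were higher and 13 lower on average. Of these 20, 1 lay above (5.00%, against 14.9% of all genes) and 3 below (15.0%, against 10.5%). The list's median was -0.08, and ran from -0.56 to 0.15 with 1 array left out. The heat shock co-chaperone Bag3 measured 731 and 1188 against 1952 and 2906 (-1.35 ± 0.49). The inducible chaperone Hspa1a measured 252 and 502 against 1848 and 507, where non-hypoxia a was the array that stood apart.

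Genes of salivary gland and pancreas, listed as markers of other organs, passed the filter for 6 of 25. Of these 6, 3 were 2-fold lower (50.0%, against 2.58% of all genes). Ppy, pancreatic polypeptide, measured 129 and 114 against 545 and 358, or 3.64-fold lower (-1.86 ± 0.36), while its second probe set differed by 0.06. Smr2, a salivary gland secretory protein, measured 185 and 114 against 369 and 563, while its second probe set differed by 0.10. Bpifa2, a salivary protein, was at the floor and at 314 against 336 and 889. The summed intensity of these 6 genes was 5610 and 5943 against 5688 and 4983, and the acinar gene Amy1 lay above, at 4420 and 4423 against 3547 and 2365.

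**Figure D4:**
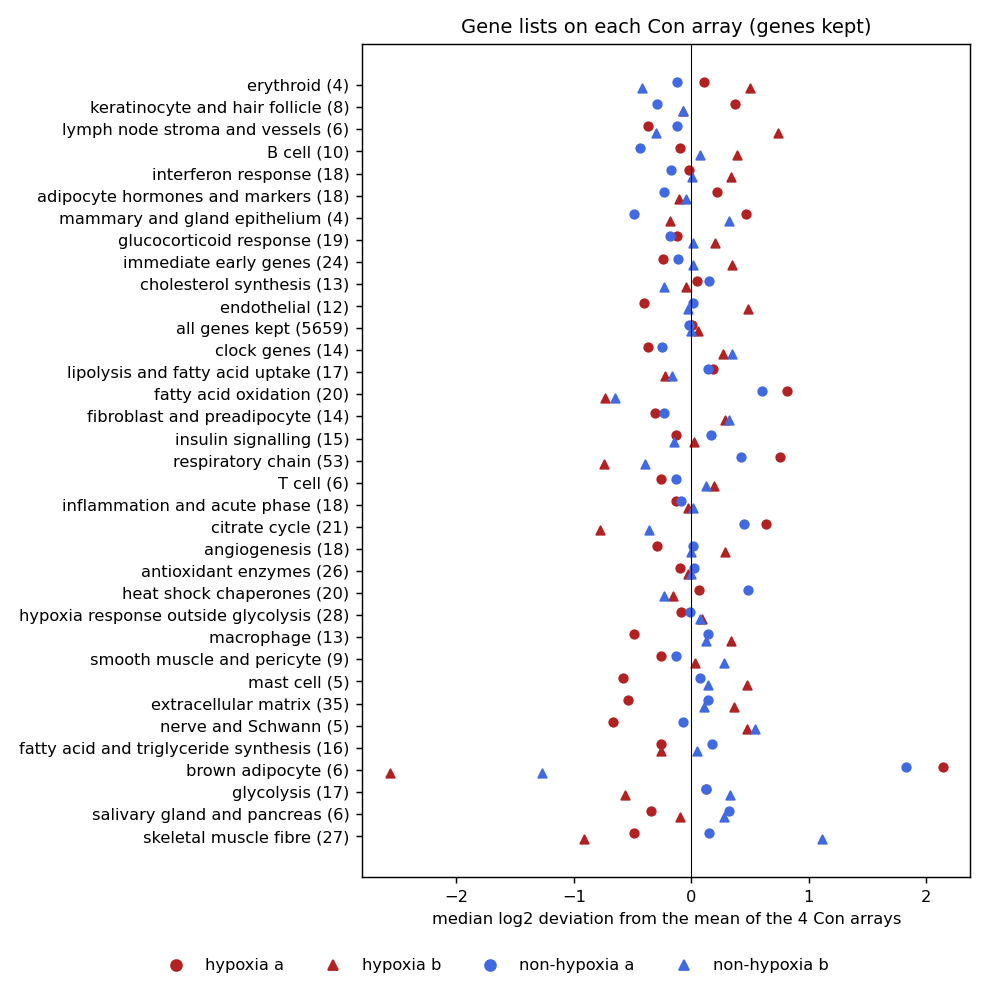
Median log2 deviation of each gene list from the mean of the 4 Con arrays, 1 point per array, with the number of genes that passed the filter in brackets and lists ordered by their median hypoxia difference. Skeletal muscle has both red points left of both blue points, brown adipocyte and mitochondrial lists have both circles right of both triangles, and the full set of genes lies near 0.

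The same treatment in the 4 Glucose arrays gave a reference, with which the Con comparison shares no arrays. For the difference between the Con and the Glucose effects, 0 of 7453 probe sets passed an adjusted p of 0.05 in limma (0%), and the smallest adjusted p was 0.9991. Before adjustment, 246 had a p below 0.05 (3.30%), where 372.7 would be expected by chance. Across genes, which are not independent replicates, the effects had an r of -0.24. Of the 146 genes 2-fold lower in Con, 111 were higher on average under hypoxia in Glucose, and 12 were 2-fold higher there with no overlap, against 1.70% of all genes, and 3 were 2-fold lower, against 1.54%. Of the 100 genes 2-fold higher in Con, 39 were higher and 59 lower in Glucose. Sprr2i was higher in both, by at least 2.45 in Con and at least 2.42 in Glucose. Both sizes depend on the floor, where both Con non-hypoxia arrays and 1 Glucose non-hypoxia array lay. Nnat, Mest and Adm differed in Glucose by -0.33, -0.05 and 0.05, and Pgam2, Cebpb and Bhlhe40 by 0.40, 0.29 and 0.84. For Pgam2 the Glucose arrays overlapped between the treatments, and the non-hypoxia array lettered a was at the floor. Grk6, a kinase of G protein-coupled receptors, went opposite ways, but it was at the floor on both Con non-hypoxia arrays and on both Glucose hypoxia arrays, so that its differences of 2.11 in Con and -2.94 in Glucose depend on the floor.

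**Figure D5:**
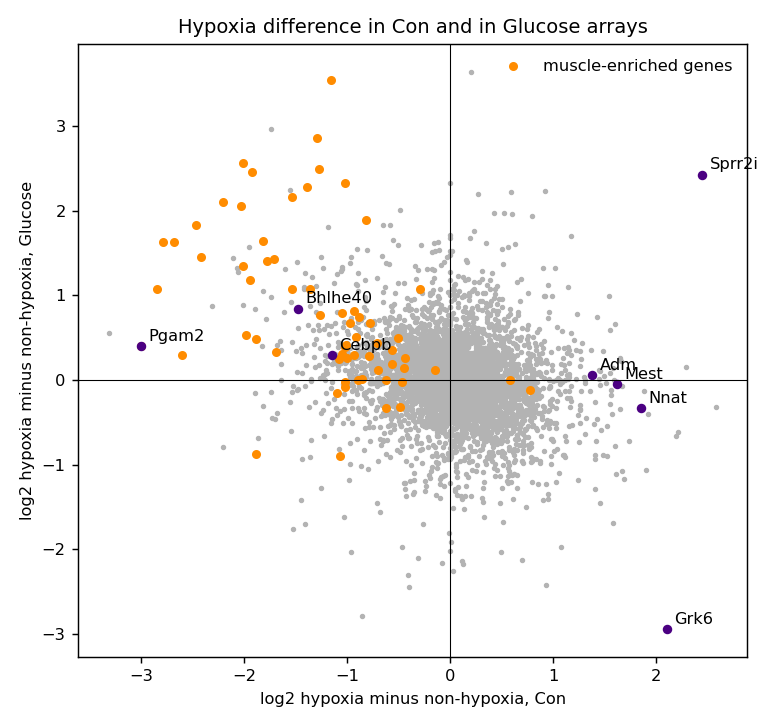
The log2 difference between hypoxia and non-hypoxia in Con (horizontal axis) and in Glucose (vertical axis) for 5659 genes. Muscle-enriched genes (orange) lie mostly left of 0 and above it, that is lower on average under hypoxia in Con and higher on average in Glucose. Labelled genes in purple are those given in the text.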

How the data were processed

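Total RNA of mouse tissues was measured on short-oligonucleotide arrays, 1 sample per array. The authors deposited 1 linear intensity per probe set and array in the series' value table, with the summary method not stated. The trimmed mean was 800 on each of these arrays, and this deposited scaling was kept. The 66 control probe sets were left out. Of the other 12422, the platform annotation gives 1 symbol to 10833, several to 396 and none to 1193, and only those with 1 were named. A gene was represented by its probe set with the highest mean.

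The floor of 97.7 is the 20th percentile of positive values. The 8 adipose arrays were fitted with limma 3.58.1 under R 4.3.3 as 4 groups (lmFit, eBayes, two-sided, 4 residual degrees of freedom, Benjamini-Hochberg threshold 0.05). Precision is limited by the number of arrays. The fit was tested on simulated data.

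Named genes were the 12 with the widest gap between treatments in each direction, the 4 largest differences per list, 18 genes of adipose and hypoxia biology, the 5 smallest p each way for the effect and for its difference from Glucose, and 6 each way by letter. Of the 18, Cfd and Egln3 have no probe set of their own symbol. Further list members were named to show a list's spread, after their values were seen. The members and lists were chosen with earlier results of these data known. Alternatives tried were other floors, filters and normalizations, leaving out each array, the Con arrays alone, the letter and the title code. Promoter sequences are from RefSeq, and 4540 of 5659 genes matched them by symbol.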

Additional observations from a re-analysis of the deposited data

Results flagged for a closer look

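The hypoxia effect differed between Con and Glucose at an unadjusted p of 0.05 in limma, with opposite directions, for a set of named genes, none of which passed adjustment (adjusted p = 0.9991 for each). Grk6, Gstt2, Srsf4, Mcrs1, Clgn, Bysl, Hoxc6, Sac3d1 and Atn1 had been named for a small p of this same difference, so that their p is no further evidence. Over all probe sets 3.30% had such a p. The second probe set of Clgn differed by 0.43 in Con, in the other direction. The difference of the log2 effects, Con minus Glucose, was 5.05 for Grk6, 3.05 for Gstt2, 2.96 for Pygo2, 2.82 for Plk1, 2.30 for Srsf4 and 1.98 for Mcrs1. It was -4.38 for Pdlim3, a muscle protein of the Z-disc, -3.80 for Clgn, -2.71 for Bysl, -2.45 for Hoxc6, -2.44 for Sac3d1, -2.42 for Atn1, -2.32 for Bhlhe40 and -2.11 for Smr2. These sizes depend on the floor for Grk6, Gstt2, Pygo2, Plk1, Pdlim3, Clgn and Atn1, which had 1 or more Con or Glucose arrays there.

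The list of fatty acid and triglyceride synthesis had every hypoxia array median below every non-hypoxia one in Con and above in Glucose, with a median difference between the effects of -0.82, which was not tested. The list's summed intensity overlapped between the treatments in Con. The 3' to 5' ratio of the Actb control probe sets, which no comparison uses, was 1.54 on average on the Con hypoxia arrays and 0.865 on the Con non-hypoxia arrays.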

How the results depend on the processing

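Without the filter on low values, 2 probe sets passed for hypoxia in Con (Gli3, Strada) and 3 for its difference from Glucose, all with values near the floor; under every other alternative run the count was 0. The letters were not shown to pair the arrays: deviations of same-lettered arrays correlated at 0.18. With a replicate block the counts stayed at 0, both for the effect, where 380 probe sets had an unadjusted p below 0.05, and for its difference from Glucose, where 421 had. The count of probe sets 2-fold higher with no overlap, 161, became 92 with a floor of 200 and 44 with a stricter filter, and 405, 382, 588 and 269 without hypoxia a, hypoxia b, non-hypoxia a and non-hypoxia b. The count lower, 206, became 110 with the stricter filter and 385, 483, 552 and 239 without the same arrays in turn; with fewer arrays, no overlap is easier to reach. The hypoxia response median, -0.08, was -0.25 within code s4 and 0.15 within code s2, and -0.22 to -0.0069 with 1 array left out. The lipid synthesis median, -0.34, was -0.47 within letter a, -0.24 within letter b, -0.15 within code s4, -0.23 with the mean of a gene's probe sets, and -0.38 to -0.24 with 1 array left out. The muscle fibre median, -1.28, was -0.54 within letter a, -0.65 without muscle-enriched genes (chosen after seeing the data), and -1.74 to -0.92 with 1 array left out. Of 34 list medians, 27 changed sign under at least 1 alternative, in 103 of 544 values; those of muscle fibre, glycolysis, lipid synthesis, adipocyte hormones, interferon, erythroid and keratinocyte genes did not. Among medians of 0.25 or more in size, the sign changed for brown adipocyte at 0.35 within letter a, 3.70 within code s4 and -2.78 to 1.86 with 1 array left out; B cell at -0.12 within code s4; lymph node at -0.069 with the stricter filter, -0.28 within letter a, -0.15 within code s4 and -0.24 to 0.89 with 1 array left out; and salivary gland at 0.37 with the stricter filter. The cause of these moves was not tested.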
